A study of Mus musculus with 14 samples.

Results

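Histone deacetylases are the enzymes that take acetyl groups off lysine residues, and 10 of their mouse genes were followed here in blood cells: Hdac1, Hdac2, Hdac3, Hdac4, Hdac5, Hdac6, Hdac7, Hdac8, Hdac9 and Hdac11. They were chosen by name, as the array probes whose identifiers match these symbols, out of 20022 genes with a symbol on the array. Of the 10 genes, 7 had a probe bright enough to be tested, against 11481 genes in all. Hdac5 was the gene of the family that rose in SS against SI mice when all mice were compared. The rise was 0.58 ± 0.16 on the log2 scale (SE, limma adjusted p = 0.0328), which is 1.49-fold. The call was lost in 4 of 6 alternative settings and without any 1 of 10 of the 14 arrays. Among the 6, the mean of a gene's probes could hardly change the call, as Hdac5 had 1 probe. The Hdac9 probe was bright enough for a test only through the SS labelled females, the group where it was high. On the slide of the labelled females Hdac9 was higher in SS, 3.05-fold as measured (limma adjusted p = 0.0304). On the other slide it had a value of -0.63 and did not pass. The call in labelled females was lost in 4 of 7 alternative settings. Among the 7, the mean of a gene's probes could hardly change it, as Hdac9 also had 1 probe. The lowest log2 change in the 7 settings was 0.19, under a background correction that compresses changes of dim probes. The call was also lost without any 1 of the 6 labelled female arrays, where the log2 change ran from 1.27 to 1.94.

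The mice had lived under 1 of 2 early social stresses. The 8 SS mice had met a hostile social environment in the third postnatal week, and the 6 SI mice had been isolated at that age, described in the design as juvenile isolation. All of them, the SI group included, were conditioned to a place with cocaine at 5 mg/kg, a dose under the threshold for preference, then passed through extinction and withdrawal, and were bled 24 hours later. The SS group held 4 labelled males and 4 labelled females, and the SI group 4 labelled males and 2 labelled females; strain and age at sampling are not given in the sources used here. No group without stress or without cocaine was analysed here, so that every difference below is SS against SI. Blood was freed of red cells by lysis, with no gradient or sort named, and total RNA was measured on one-colour Agilent arrays, 1 array per mouse.

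The classical deacetylases work in groups with distinct habits. Hdac1, Hdac2, Hdac3 and Hdac8 are class I enzymes; the first 3 sit in corepressor complexes on chromatin. Hdac4, Hdac5, Hdac7 and Hdac9 are class IIa proteins, which move between nucleus and cytoplasm on phosphorylation, bind transcription factors of the MEF2 family and have little catalytic activity of their own. Hdac6 is a class IIb enzyme of the cytoplasm that removes acetyl groups from tubulin, and Hdac11 is the only class IV member. In blood, Hdac3 and Hdac7 are known from lymphocyte development.

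Each slide carried a single sex label, so that label and slide cannot be told apart. On each slide SI and SS arrays also lay in different columns, so that stress group and column cannot be told apart either. The Y-linked genes Eif2s3y and Ddx3y rose clearly over background in 0 of 8 mice labelled male and 6 of 6 labelled female, and Xist in 5 of 8 and 0 of 6, which goes against the sex labels; "labelled" is therefore kept throughout. Between 34.8% and 47.7% of the spots of an array were well above background, the flag by which the scanning software marks a spot as brighter than its surroundings. The array of SI labelled male 4 stood apart. It was the dimmest, at -1.08 on the log2 scale against the mean array when the dimmest other array of its slide had -0.40. Its lowest correlation with an array of its group was 0.833, against at least 0.927 in all groups without it. Results that rest on it are given with and without it. Markers of T cells (9 of 10 listed genes tested), B cells (8 of 8), NK cells (6 of 7) and monocytes (7 of 8) were measured, the cells that the PBMC label names; 16 of 16 platelet and 10 of 11 neutrophil markers were measured too.

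**Figure D1:**
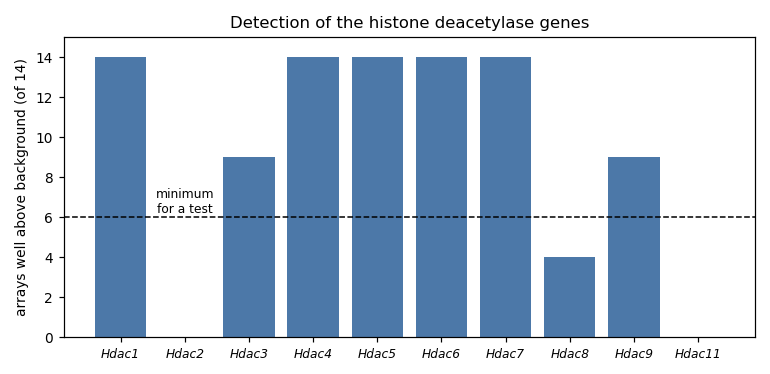
Number of arrays, of 14, on which each histone deacetylase gene was well above background (vertical axis), by its brightest probe. Hdac1, Hdac4, Hdac5, Hdac6 and Hdac7 reached 14, Hdac3 and Hdac9 reached 9, Hdac8 reached 4 and Hdac2 and Hdac11 reached 0; the dashed line is the minimum of 6 for a test.

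Detection divided the family before any comparison. Hdac1, Hdac4, Hdac5, Hdac6 and Hdac7 were well above background on 14 of 14 arrays, and Hdac3 and Hdac9 on 9 of 14. Hdac8, an X-linked class I enzyme that also acts on cohesin, was well above background on 4 of 14 arrays by its brighter probe and on none by the other, with 1 array in each of the 4 groups. Hdac2, the close partner of Hdac1 in corepressor complexes, was measured by 1 probe printed as 10 spots per array, and 2 of its 140 spots were well above background. Its median signal per array was between 2.46 and 5.58 fluorescence units. The SD between the spots of an array was 0.49 on the log2 scale at the median. The SD between arrays was 0.39 for the mean of the spots after scaling. These are unlike measures, because a mean of 10 spots varies less than a single spot. Hdac11 was well above background on 0 of 14 arrays. These 3 genes were therefore not tested. For a probe in this range the arrays give a bound on brightness and say nothing of whether the enzyme is present.

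Hdac5, a class IIa member well above background on every array, had a median signal of between 1390 and 3360 units in the 4 groups. Levels below are log2 signals relative to the 75th percentile of the probes well above background on every array, so that 0 is the level of that percentile, and they are compared between arrays and not between genes. On the slide of the labelled males the 4 SI mice had 1.42, 1.84, 1.96 and 1.76 and the 4 SS mice 2.60, 2.27, 2.11 and 1.98. On the slide of the labelled females the 2 SI mice had 1.68 and 1.28 and the 4 SS mice 2.25, 2.04, 2.40 and 2.05. Every SS array was above every SI array of its slide; SS and SI did not overlap on either slide in this direction for 6.31% of all tested genes. The gap was narrow on the slide of the labelled males, where the lowest SS array stood at 1.98 and the highest SI array at 1.96.

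The means of Hdac5 were 1.75 ± 0.23 (SD, n = 4) in SI and 2.24 ± 0.27 (SD, n = 4) in SS labelled males, and 1.48 ± 0.28 (SD, n = 2) and 2.18 ± 0.17 (SD, n = 4) in the labelled females. The comparison over all mice, with the slide as a term, gave 0.58 ± 0.16 (SE, limma adjusted p = 0.0328). Taken by slide, the change was 0.49 ± 0.20 (SE, adjusted p = 0.171) in labelled males and 0.71 ± 0.25 (SE, adjusted p = 0.151) in labelled females, neither past the threshold. The difference between the slides was 0.21 ± 0.32 (SE, adjusted p = 0.758). Hdac5 was the 1 called gene among the 7 tested members over all mice, when 9.56% of all tested genes were called and 8.61% were called higher. The call is close to the threshold. It was lost when arrays were scaled by the percentile of all probes (0.54, adjusted p = 0.221), by quantiles (0.47, adjusted p = 0.092), with no filter on dim probes (0.58, adjusted p = 0.209) and in the authors' deposited table (0.27, adjusted p = 0.252), and without any 1 of 10 of the 14 arrays (0.50 to 0.61, adjusted p up to 0.104).

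**Figure D2:**
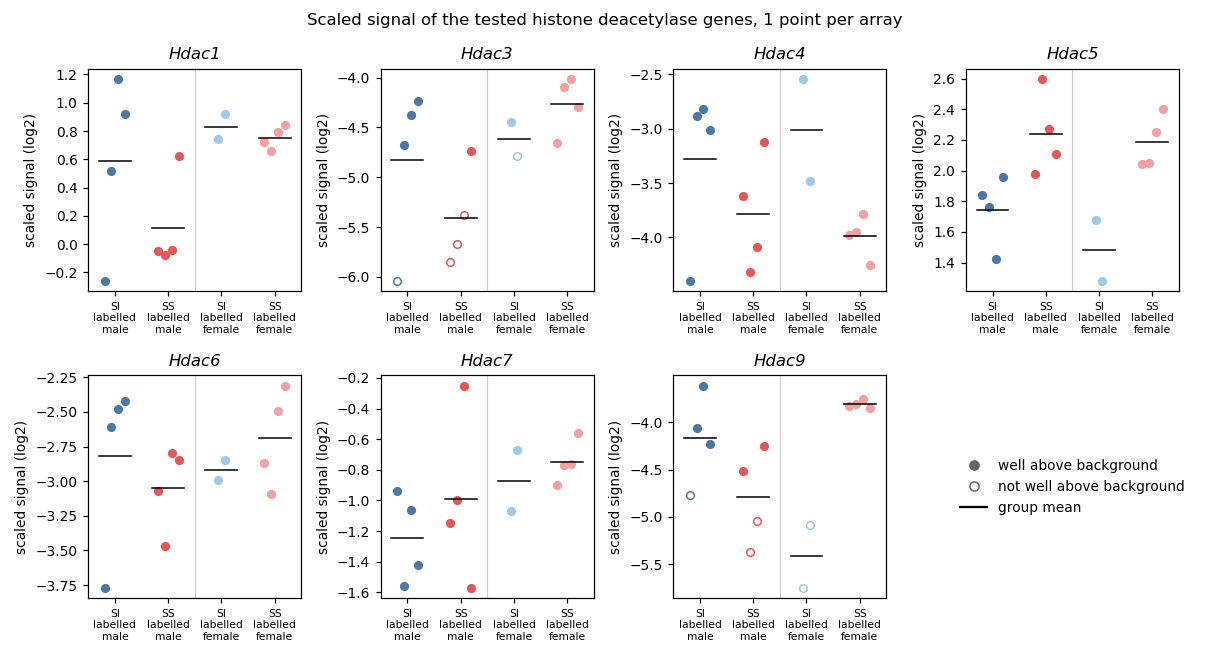
Scaled log2 signal (vertical axis) of the 7 tested histone deacetylase genes in the 4 groups, with 1 point per array, filled where the probe was well above background, and a line at each group mean. Hdac5 has every SS array above the SI arrays of its slide, with 1.98 against 1.96 at the nearest, and Hdac9 has the 4 SS labelled females between -3.85 and -3.75, above all other groups' means.

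Markers of platelets moved with Hdac5. Of the 16 platelet markers, 15 were higher in SS over all mice, with a median log2 change of 1.55. Their summed scaled signal was 116 to 467 in SI and 472 to 826 in SS labelled males, and 146 to 187 and 508 to 633 in the labelled females, and no platelet marker was below background on every array. No marker of T cells, B cells, NK cells, monocytes, neutrophils or red cells passed over all mice. Without SI labelled male 4, in a fit that called 20.8% of all genes, 16 of 16 platelet markers were higher. In that fit 4 of 10 neutrophil and 1 of 7 monocyte markers were lower. The part of the platelet RNA in the Hdac5 difference was not tested. In bulk blood, fewer cells of a type and less RNA per cell cannot be told apart.

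**Figure D3:**
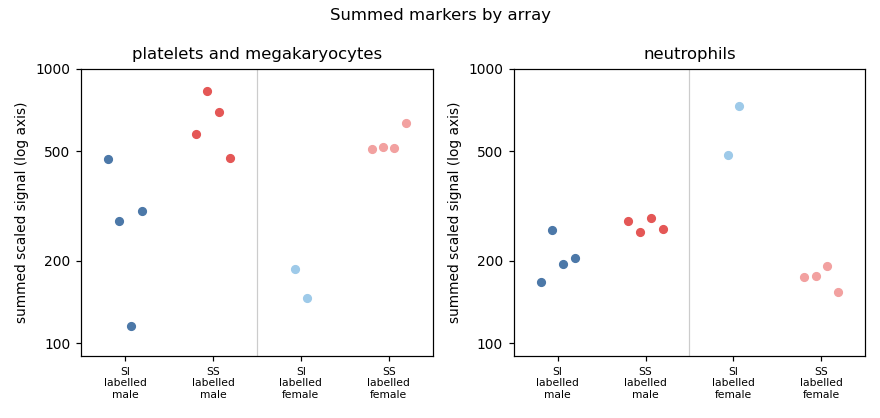
Summed scaled signal (vertical axis, log scale) of 16 platelet and 10 neutrophil markers, 1 point per array, in the 4 groups. Platelet markers are higher in SS on both slides (472 to 826 against 116 to 467, and 508 to 633 against 146 to 187), and neutrophil markers are lower in SS labelled females (154 to 191) than in SI labelled females (484 to 732).

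The genes whose level over the 14 arrays was most like that of Hdac5, after the mean of each slide was removed, were Ubxn6, a cofactor of the VCP segregase (Pearson r = 0.987), Mindy1, a deubiquitinase (r = 0.987), and Nipsnap2, a mitochondrial protein (r = 0.984). The arrays share their scaling and stress groups, so these values describe a likeness only. All 3 were also higher in SS over all mice, by 0.77 ± 0.17 (SE, adjusted p = 0.0109), 0.84 ± 0.18 (SE, adjusted p = 0.00985) and 1.10 ± 0.22 (SE, adjusted p = 0.00638).

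The promoters of Hdac5, Hdac9 and Hdac4 are printed because the comparisons turn on these class IIa members, and show how unlike each other the stretches before their starts are. The search of the RefSeq promoter table (GRCm38.p6) covered 8 of the 10 genes, with 12 starts. The chromosome of Hdac3 was left out of the search, so Hdac3 was not looked for, and no promoter of Hdac1 was found. Each line holds the 250 bases before a start, in the direction of the gene, and all 4 lie on the minus strand: Hdac5 at chr11:102230173-102230422, Hdac9 at chr12:34917096-34917345 and, for a start further into the gene, at chr12:34528890-34529139, and Hdac4 at chr1:92180342-92180591. Capitals mark the GC box GGGCGG, the CCAAT box CCAAT, the TATA box TATAAA and the MEF2 motif, each searched on both strands together with CACGTG and AGATAA; no marked motifs overlap in these 4 stretches.
Hdac5: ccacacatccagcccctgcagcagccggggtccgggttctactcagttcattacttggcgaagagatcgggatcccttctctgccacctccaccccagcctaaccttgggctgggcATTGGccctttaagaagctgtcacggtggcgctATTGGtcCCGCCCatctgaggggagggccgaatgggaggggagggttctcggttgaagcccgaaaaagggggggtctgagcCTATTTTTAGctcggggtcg
Hdac9, upstream start: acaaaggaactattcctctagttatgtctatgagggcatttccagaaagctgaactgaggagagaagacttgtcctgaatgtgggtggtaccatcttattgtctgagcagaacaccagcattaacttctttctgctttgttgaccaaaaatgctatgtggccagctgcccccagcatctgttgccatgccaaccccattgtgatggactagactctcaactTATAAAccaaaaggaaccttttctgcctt
Hdac9, downstream start: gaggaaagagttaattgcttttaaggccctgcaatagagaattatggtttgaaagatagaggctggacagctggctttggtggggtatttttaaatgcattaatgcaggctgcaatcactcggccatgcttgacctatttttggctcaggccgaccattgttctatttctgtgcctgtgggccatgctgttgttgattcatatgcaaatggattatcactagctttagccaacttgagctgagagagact
Hdac4: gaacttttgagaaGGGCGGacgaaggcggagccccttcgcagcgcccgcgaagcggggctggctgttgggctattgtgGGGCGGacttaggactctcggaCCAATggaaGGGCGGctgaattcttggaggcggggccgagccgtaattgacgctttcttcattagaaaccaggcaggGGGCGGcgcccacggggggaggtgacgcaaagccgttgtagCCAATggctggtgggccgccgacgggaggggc
The Hdac5 stretch held the only MEF2 motif among the 12 promoters searched, near its start, with 2 CCAAT boxes and 1 GC box. Of the 32851 promoters in the table, 2.92% hold a MEF2 motif in the same window, 33.8% a CCAAT box and 32.7% a GC box. Hdac4 held 4 GC boxes and 2 CCAAT boxes and was 65.2% G or C with 23 CpG, against medians of 52.4% and 6 over all promoters. The Hdac9 stretches were 44.4% and 43.6% G or C, with 0 and 2 CpG, and the upstream one held 1 TATA box, which 12.4% of promoters hold. Over the 12 promoters searched, which leave out Hdac1 and Hdac3, GC boxes were found in 6, CCAAT boxes in 5 and TATA boxes in 2. AGATAA was found in 1 (9.99% of all promoters) and CACGTG in 0 (6.02% of all promoters). These matches describe letters and do not show that a factor binds; the array does not tell which Hdac9 start was used.

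Hdac9, a class IIa member that is also made as a short form without the catalytic domain, differed on the slide of the labelled females. The 2 SI mice there had -5.75 and -5.08, neither well above background. The 4 SS mice had -3.75, -3.83, -3.85 and -3.80, all well above background. The SS arrays spanned 0.10, and the lowest of them lay 1.23 above the brighter SI array. On the slide of the labelled males the SI mice had -3.61, -4.77, -4.23 and -4.06 and the SS mice -5.37, -5.04, -4.25 and -4.51, with the groups overlapping and the probe well above background on 3 of 4 SI and 2 of 4 SS arrays.

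The group means of Hdac9 were -5.42 ± 0.47 (SD, n = 2) in SI and -3.81 ± 0.04 (SD, n = 4) in SS labelled females. The fit gave 1.61 ± 0.36 (SE, limma adjusted p = 0.0304) there. The measured ratio was 3.05-fold and is not a lower limit, because neither SI array had the probe well above background. The lowest signals of any probe well above background on the SI arrays 27 and 28 were 7.07 and 6.48 units. Hdac9 itself had 11 and 10.6 units there, so these lowest signals could not set a bound. In labelled males the means were -4.17 ± 0.48 (SD, n = 4) in SI and -4.80 ± 0.51 (SD, n = 4) in SS, a change of -0.63 ± 0.29 (SE, adjusted p = 0.212), opposite in sign; under the normexp background correction that value was -0.01 (adjusted p = 0.975). Hdac9 was the 1 called member of 7 in labelled females, when 4.96% of all tested genes were called and 3.93% were called higher. SS and SI arrays of that slide did not overlap for 38.6% of all tested genes, so that the separation alone is common there. The difference between the slides was 2.24 ± 0.46 (SE, limma unadjusted p = 0.000309) and did not pass over all probes (adjusted p = 0.116), where 0 of 7 members and 0.061% of all genes were called. With normexp this difference was 0.20 (adjusted p = 0.697). Normexp was run with an added offset of 50 units, which shrinks log2 changes of a probe this dim. Over all mice Hdac9 changed by 0.27 ± 0.37 (SE, adjusted p = 0.704).

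The Hdac9 call in labelled females rests on few arrays and a dim probe. The probe was well above background on 9 arrays, 4 of them SS labelled females. It reached the minimum of 6 for a test only through that group, where it was high. The call and its share among the members therefore lean on the filter. The call was lost under quantile scaling (1.64, limma adjusted p = 0.0687), with no filter (1.61, adjusted p = 0.105) and in the authors' deposited table (1.36, adjusted p = 0.138). It was also lost under the normexp background correction (0.19, adjusted p = 0.691), and without any 1 of the 6 labelled female arrays (1.27 to 1.94, adjusted p up to 0.220). Markers moved on this slide too. Of the 10 neutrophil markers measured, 6 were lower in SS labelled females, with a median of -2.19 and a summed level of 154 to 191 against 484 to 732 in SI, and 11 of 16 platelet markers were higher. Without any marker called, the summed NK cell markers were 15.8 to 17.1 in SI and 3.30 to 7.29 in SS (median change -1.20). The red cell markers, none called, were 1170 to 1960 and 486 to 1000 (median change -1.21). The B cell markers, also with none called, went the other way, at 13.7 to 27 in SI and 27.6 to 36.3 in SS (median change 0.52). On the slide of the labelled males the B cell sums overlapped, at 12.3 to 29.2 in SI and 10.8 to 25.6 in SS. In labelled males the summed neutrophil level was 167 to 258 in SI and 255 to 287 in SS; no gene of any kind was called there, and 2 of the 10 neutrophil markers were called higher without SI labelled male 4. The part of these cell types in the Hdac9 difference was not tested.

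Hdac4, the class IIa member best known from bone and muscle, had the second lowest p of the family over all mice and went the other way from Hdac5. In labelled females the SI mice had -2.54 and -3.48 and the SS mice -3.78, -3.98, -4.25 and -3.95, with every SS array below both SI arrays, a separation seen in 38.6% of all tested genes on that slide. In labelled males the SI mice had -2.82, -4.40, -3.01 and -2.88 and the SS mice -4.32, -4.09, -3.12 and -3.62. The other 3 SI arrays lay close together above all SS arrays, and that of SI labelled male 4 lay below all of them. The change over all mice was -0.70 ± 0.29 (SE, limma adjusted p = 0.181), with -0.51 ± 0.37 (SE, adjusted p = 0.390) in labelled males and -0.98 ± 0.46 (SE, adjusted p = 0.322) in labelled females; none passed. Without SI labelled male 4 the change over all mice was -0.92 ± 0.22 (SE, adjusted p = 0.0122), a fall past the threshold in a fit that called 20.8% of all genes. The genes most like Hdac4 over the arrays were Mia2 (r = 0.980), Phyh, an enzyme of phytanic acid oxidation (r = 0.975), and Gpr65, a proton-sensing receptor (r = 0.975), and none of them passed over all mice (adjusted p = 0.220, 0.133 and 0.191).

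Hdac7, the class IIa member of thymocytes and endothelium, showed no difference beyond its spread. In labelled males it ran from -1.56 to -0.94 in SI and from -1.57 to -0.25 in SS, and in labelled females the SI mice had -1.07 and -0.67 against -0.90 to -0.56 in SS. The groups overlapped on both slides. The change was 0.20 ± 0.20 (SE, adjusted p = 0.590) over all mice, 0.25 ± 0.27 (SE, adjusted p = 0.543) in labelled males and 0.12 ± 0.32 (SE, adjusted p = 0.909) in labelled females. The 4 class IIa genes did not share a sign over all mice: Hdac5 rose, and Hdac4, Hdac7 and Hdac9 had values of -0.70, 0.20 and 0.27 that did not pass.

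**Figure D4:**
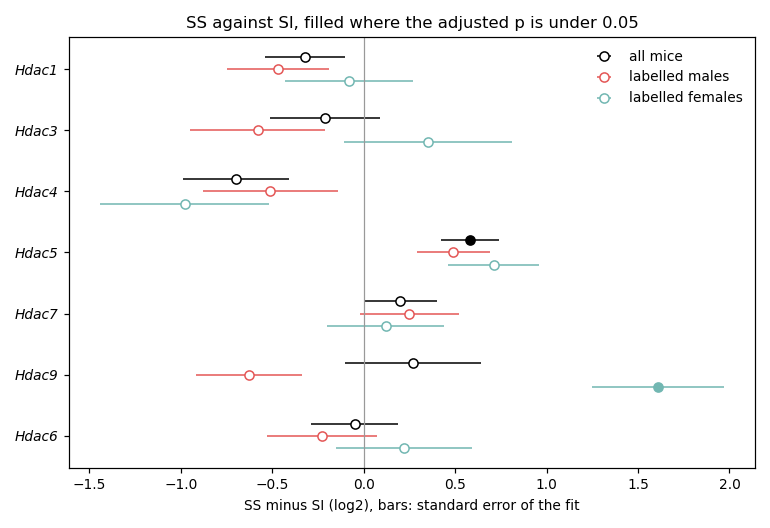
Log2 change of SS minus SI (horizontal axis) with the standard error of the fit as bars, for the 7 tested genes over all mice and within each sex label; filled points have an adjusted p under 0.05. The filled points are Hdac5 over all mice (0.58) and Hdac9 in labelled females (1.61), and the Hdac9 value in labelled males lies on the other side of 0 (-0.63).

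Among the class I enzymes, Hdac1 and Hdac3 were tested. Hdac1, the catalytic subunit of the Sin3, NuRD and CoREST complexes, was measured by 3 probes, which correlated with each other at 0.69 to 0.77 over the arrays. By the brightest of them the SI labelled males had 1.17, -0.26, 0.92 and 0.52 and the SS labelled males -0.08, -0.04, 0.62 and -0.05. SS arrays other than SS labelled male 3 lay between -0.08 and -0.04, that one lay among the SI arrays, and SI labelled male 4 lay below all of them. The labelled females were closely grouped, with 0.74 and 0.92 in SI and 0.66 to 0.84 in SS. The change was -0.32 ± 0.22 (SE, adjusted p = 0.438) over all mice, -0.47 ± 0.28 (SE, adjusted p = 0.304) in labelled males and -0.08 ± 0.35 (SE, adjusted p = 0.947) in labelled females. The other 2 probes gave -0.16 each over all mice. The genes most like Hdac1 were the kinase Map2k5 (r = 0.995), the alanyl-tRNA synthetase Aars (r = 0.990) and Zfp622 (r = 0.988), none of which passed over all mice (adjusted p = 0.387, 0.567 and 0.462).

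Hdac3, the enzyme of the NCoR and SMRT corepressors, was dim. It was well above background on 3 of 4 SI and 1 of 4 SS labelled males, and on 1 of 2 SI and 4 of 4 SS labelled females. Like Hdac9, it reached the minimum of 6 arrays for a test only through the SS labelled females. That was its highest group, with a mean of -4.26 against -5.41 to -4.61 in the others. The SI labelled males had -4.37, -6.04, -4.23 and -4.68 and the SS labelled males -5.67, -5.38, -4.74 and -5.85. The SI labelled females had -4.44 and -4.79 and the SS labelled females -4.01, -4.66, -4.29 and -4.09, and the groups overlapped on both slides. The change was -0.21 ± 0.30 (SE, adjusted p = 0.725) over all mice, -0.58 ± 0.37 (SE, adjusted p = 0.333) in labelled males and 0.35 ± 0.46 (SE, adjusted p = 0.782) in labelled females. Hdac1 and Hdac3 varied together over the 14 arrays, with r = 0.86 after slide means were removed, and both were correlated with Hdac6 (0.77 and 0.78). Hdac5 was not positively correlated with any of them (-0.45, -0.12 and -0.07), and its r with Hdac4 was -0.62. These values describe 14 arrays that share a scale, with SI labelled male 4 at or near the lower end in Hdac1, Hdac3, Hdac4 and Hdac6.

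Hdac6, the tubulin deacetylase, was measured by 2 probes that correlated at 0.95. It ran from -3.77 to -2.42 in SI and from -3.47 to -2.80 in SS labelled males. In labelled females it had -2.99 and -2.85 in SI and -3.09 to -2.31 in SS. The change was -0.05 ± 0.24 (SE, adjusted p = 0.930) over all mice, -0.23 ± 0.30 (SE, adjusted p = 0.646) in labelled males and 0.22 ± 0.37 (SE, adjusted p = 0.838) in labelled females. In labelled males 3 SI arrays, at -2.61 to -2.42, lay above all SS arrays and SI labelled male 4 lay below them.

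In labelled males the family's result depended on that 1 array. With it, 0 of 7 members were called, as were 0% of all genes (0 of 24013 probes, 5700 of them with an unadjusted p under 0.05 and a lowest adjusted p of 0.0744). Without it, 4 of 7 members were called lower in SS: Hdac1 by -0.76 ± 0.21 (SE, limma adjusted p = 0.0214), Hdac3 by -0.98 ± 0.27 (0.0194), Hdac4 by -0.88 ± 0.29 (0.0350) and Hdac9 by -0.83 ± 0.27 (0.0346). The same fit called 44.1% of all genes, and 27.2% of all genes on the lower side, so that such calls were common. Array brightness before scaling also differed between the groups. SI labelled males 6, 7 and 5 had 0.86, 1.04 and 0.52 on the log2 scale against the mean array. SS labelled males 1, 2 and 01b had -0.14, -0.37 and -0.40, and SS labelled male 3 had 0.54. The part of brightness in these calls was not tested. Hdac3 and Hdac9 were dim on the SS side of this comparison, well above background on 1 of 4 and 2 of 4 SS arrays. The size of their falls is therefore uncertain. The Hdac1 call came from the brightest of its 3 probes. In labelled males with all arrays in, that probe gave -0.47 and the other probes -0.09 and -0.18. With all arrays in, normexp gave 0.03 for Hdac3 and -0.01 for Hdac9, but its added offset shrinks changes of probes this dim. The array left out also stood apart in cell markers: its summed red cell markers were 2530, against 480 to 851 in the other SI and 644 to 1610 in the SS labelled males, and its platelet markers 467, against 116 to 302 in the other SI labelled males. In the fit without it, 16 of 16 platelet markers (median 1.6) and 2 of 10 neutrophil markers were called higher in SS labelled males. Of 8 B cell markers 3 were lower and 1 higher. Lower too were 1 of 7 monocyte markers and 1 of 2 markers of eosinophils, basophils and mast cells. No marker of T cells, NK cells or red cells was called. The part of these cell types in the deacetylase calls was not tested. Without that array Hdac6 had -0.54 ± 0.22 (SE, adjusted p = 0.0691), Hdac5 0.52 ± 0.21 (SE, adjusted p = 0.0615) and Hdac7 0.35 ± 0.27 (SE, adjusted p = 0.285). The difference between the slides without that array passed for Hdac9, at 2.44 ± 0.42 (SE, adjusted p = 0.0323), when 2.13% of all genes passed. For Hdac3 it was 1.34 ± 0.41 (SE, limma adjusted p = 0.0659). Both genes were bright enough for a test only through the SS labelled females, where they were high.

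**Figure D5:**
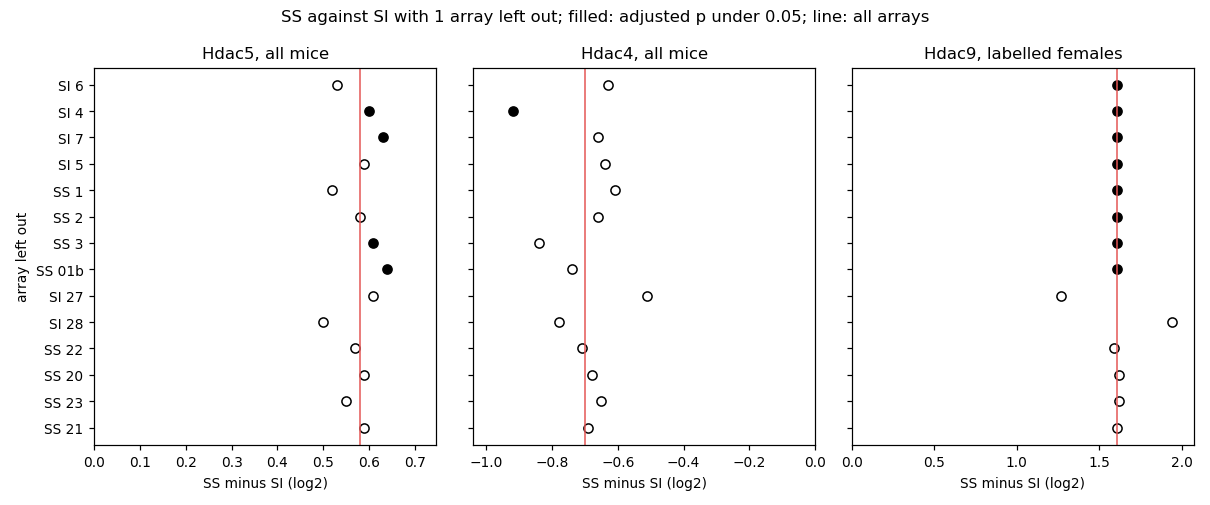
Log2 change of SS minus SI (horizontal axis) for Hdac5 and Hdac4 over all mice and Hdac9 in labelled females when the array named on the vertical axis is left out; filled points have an adjusted p under 0.05 and the line is the value with all arrays. Hdac5 stays between 0.50 and 0.64 and loses its call without 10 of the 14 arrays, Hdac4 reaches -0.92 and passes only without SI 4, and Hdac9 loses its call without any of the 6 labelled female arrays.

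Labelled females were also compared with labelled males, which is the comparison of the slides. None of the 7 members was called, when 29.2% of all genes were. In labelled females Hdac3 was higher by 0.78 ± 0.30 (SE, limma adjusted p = 0.0587), without passing. It was bright enough for a test only through the SS labelled females, where it was high. Hdac1 was higher by 0.48 ± 0.22 (SE, adjusted p = 0.0987), also without passing. A second Hdac1 probe gave 0.55 ± 0.16 (SE, adjusted p = 0.0131). The other 5 genes lay between -0.14 for Hdac5 and 0.29 for Hdac7. These values depend on the scale between the slides: with the percentile taken over all probes the median of all probes moved from -0.07 to 0.34 and 3 members were called higher, and with quantiles it moved to 0.20 and 1 was.

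The genes that work with the deacetylases were counted in 6 lists over all mice, where 9.56% of all tested genes were called, 8.61% of all on the higher side, and the median change was -0.14. Shares of called genes in the lists are to be read against these. Of the corepressor subunits that class I enzymes need, 3 of 37 tested rose and none fell, a share near that of all genes, with a median of -0.23: Mbd2, a methyl-CpG binding protein (0.63 ± 0.15, SE, adjusted p = 0.0143), Sap30l, a Sin3 complex subunit (0.63 ± 0.17, SE, adjusted p = 0.0302), and Tbl1xr1, a subunit of the NCoR complex (0.49 ± 0.14, SE, adjusted p = 0.0444). Of the partners, kinases and targets of class IIa proteins, 5 of 24 rose and 2 fell, with a median of -0.19. The adaptor Ywhah, which holds phosphorylated class IIa proteins in the cytoplasm, rose by 1.50 ± 0.24 (SE, adjusted p = 0.00475). The kinase Camk1 rose by 1.10 ± 0.23 (SE, adjusted p = 0.00733), the adaptor Ywhaz by 0.97 ± 0.18 (SE, adjusted p = 0.00512) and the transcription factor Runx1 by 0.88 ± 0.21 (SE, adjusted p = 0.0148). These 4 were also the list's calls in labelled females, at 1.85, 1.46, 1.27 and 1.30, where 4.96% of all genes were called. The remaining calls, which the naming rule does not cover and which were picked after their values were seen, were the adaptor Ywhae (0.54), the nuclear receptor Nr4a1 (-0.88) and the kinase Mark3 (-0.61). None of the 3 tested Mef2 genes passed.

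Of the 13 tested tubulin genes and partners of Hdac6, 5 rose and none fell, beside 8.61% of all genes that rose, with a median of 0.32. They were Tubb1 (1.66 ± 0.31, SE, adjusted p = 0.00501), a tubulin that is also on the list of platelet markers, Cttn, an actin-binding substrate of Hdac6 (1.45 ± 0.28, SE, adjusted p = 0.00548), and the alpha-tubulins Tuba8 (1.30), Tuba4a (0.86) and Tuba1a (0.73); the last lies outside the naming rule. Cttn and Tubb1 also passed in labelled females, at 2.25 and 1.94. Of the 7 sirtuins, the NAD-dependent deacetylases outside the Hdac family, Sirt3 (1.17 ± 0.22, SE, adjusted p = 0.00505) and Sirt5 (0.59 ± 0.16, SE, adjusted p = 0.0323), both mitochondrial, rose and none fell, with a median of 0.09. The list of histone acetyltransferases, for the opposite activity, held 15 tested genes, among them Brpf1 and Brpf3, which are subunits of such complexes and not enzymes. The coactivators Ncoa1 (0.73 ± 0.15, SE, limma adjusted p = 0.00645) and Ncoa2 (0.51 ± 0.15, SE, adjusted p = 0.0476) rose and none fell. That is 2 genes where 8.61% of all genes rose, with a median of -0.33. Of 22 bromodomain proteins, which read acetylated lysines, none passed, with a median of -0.18, and the lowest p was that of Trim24 (0.47 ± 0.18, SE, adjusted p = 0.156). In labelled males no member of the 6 lists was called, as no gene was. Without SI labelled male 4, in a fit that called 44.1% of all genes there, 1 corepressor subunit was higher and 14 of 37 lower, 4 class IIa partners were higher and 9 of 24 lower, and 5 tubulin and Hdac6 partners were higher and 3 of 13 lower. The acetyltransferase list then had 3 higher and 7 of 15 lower, the bromodomain proteins 1 higher and 8 of 22 lower, and the sirtuins 1 of 7 each way. Over all mice without that array, where 20.8% of all genes were called, the numbers that rose stayed at 3, 5, 5, 2, 2 and 0 in the order of the lists above, and 5, 4, 1, 0, 3 and 0 fell. Platelet markers moved with these calls: 15 of 16 rose over all mice, and 16 of 16 without that array. Their part in the calls was not tested.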

How the data were processed

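RNA of blood cells from 14 mice was hybridised to 1 one-colour (Cy3) array each. The deposited scanner files hold fluorescence intensity per spot, background-subtracted and spatially detrended with version 10.7.3.1 of Agilent Feature Extraction, per the file headers (the submitters' processing notes name 9.1), with no scaling between arrays. The authors also deposited a log2 value table, whose normalization the sources used here do not give, used as an alternative; its scale and centring relative to the scanner files stay unknown.

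Control and outlier spots were left out, spots of a probe were averaged as log2 processed signal, and the scale of each array was set by the 75th percentile over 14504 probes well above background everywhere. A test needed a probe above background in this sense on 6 or more of 14 arrays (24013 probes); a gene is shown by its brightest tested probe. Probe identifiers were matched to RefSeq symbols (26425 of 55681 probes); its build differs from that of the array design, so gene positions are left out, and promoter positions are those of the promoter list.

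The fits used limma (version 3.58.1, R 4.3.3, with the package data.table at version 1.17.8), with the slide as a term over all mice and with 4 groups within slides; p-values are two-sided, with Benjamini-Hochberg adjustment across every tested probe and a threshold of 0.05. The code was tested on simulated data. Alternatives were the percentile over all probes, quantiles, normexp (offset 50) on median spot and background signals, no filter on dim probes, the deposited table, each slide on its own, the mean of a gene's probes and each array left out. The normexp alternative was planned on mean spot signals, and median signals were used here. Its offset of 50 units is added to every signal and shrinks the log2 changes of dim probes. The precision is limited by the number of arrays.

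The genes and lists were chosen with earlier results of these data known. All 10 deacetylase genes are named. From each related list, called genes are named, at most 4 by size of change over all mice, or else the gene with the lowest p. For the 3 deacetylase genes with the lowest p over all mice, the 3 genes of highest correlation are named.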

Additional observations from a re-analysis of the deposited data

Results flagged for a closer look

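Among 30 groups of 4 arrays checked over the family, 3 held an array far from the other 3, where chance marks about 1 group in 20. The same sets of arrays recur for every gene, so the groups are not independent. No excess over chance can be read from the count. Hdac1 stood at 0.62 in SS labelled male 3, with the other SS labelled males between -0.08 and -0.04. The array of SS labelled male 3 was also brighter before scaling, at 0.54 against -0.40 to -0.14 in the other SS labelled males. Hdac4 stood at -4.40 in SI labelled male 4, with the other SI labelled males between -3.01 and -2.82. Hdac6 stood at -3.77 in the same array, with the others between -2.61 and -2.42. That array is the dimmest of the 14 and the one whose removal changes the comparison in labelled males.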

How the results depend on the processing

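Of 224 recomputed values of single deacetylase genes with all arrays in, 200 kept their direction and side of the threshold. The number of deacetylase genes called over all mice, 1 here, was 0 with the percentile over all probes, with quantiles, with no filter and in the deposited table, and ran from 0 to 2 with 1 array left out. In labelled females, 1 here became 0 with quantiles, normexp, no filter and the deposited table, and ran from 0 to 1. In labelled males it ran from 0 to 4, in the difference between slides from 0 to 1, and between the sex labels, 0 here, it was 3 with the percentile over all probes and 1 with quantiles, and ran from 0 to 2.

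Over all probes, 1915 were called over all mice, 1245 with normexp, 1125 with no filter, and 1489 to 3858 with 1 array left out. In labelled males 0 were called, 2 with the percentile over all probes and with quantiles, 212 in the deposited table, and 0 to 9412 with 1 array left out. In labelled females 960 were called, 410 with normexp, 52 with no filter, 434 in the deposited table, 1707 with that slide on its own, and 45 to 1912. The difference between slides had 11, 17 with quantiles, 42 in the deposited table, and 1 to 669. Between the sex labels 9136 were called, 2765 of them higher in labelled females; normexp called 3622 (1781 higher), the percentile over all probes 11704 (6747 higher) and quantiles 10092 (5054 higher), and 7931 to 9847 were called with 1 array left out. The cause of these shifts was not tested, apart from the larger number of probes (55681) tested with no filter.

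Some values changed sign, none of them called here or under the alternative; the largest here was that of Hdac3 in the difference between slides, at 0.93, and that of Hdac3 in labelled males was -0.58. With the percentile over all probes Hdac1 had 0.08 in labelled females, Hdac7 0.21 in the difference between slides, and Hdac4 0.40 and Hdac5 0.27 between the sex labels. With quantiles Hdac4 had 0.44 between the sex labels. With normexp Hdac3 had 0.03 in labelled males, -0.17 in labelled females and -0.19 in their difference, Hdac6 -0.03 in labelled females and Hdac4 0.12 between the sex labels. In the deposited table Hdac6 had 0.02 over all mice and -0.02 between the sex labels. With 1 array left out the values ran from -0.21 to 0.05 for Hdac6 and -0.08 to 0.46 for Hdac9 over all mice, from -0.17 to 0.01 for Hdac1 and -0.08 to 0.32 for Hdac7 in labelled females, from -0.94 to 0 for Hdac4 and -0.33 to 0.11 for Hdac7 in the difference between slides, and from -0.20 to 0.13 for Hdac4 and -0.10 to 0.44 for Hdac9 between the sex labels. Signal over background limits Hdac2, Hdac8 and Hdac11 most, and Hdac3 and Hdac9 next. No paired analysis was possible because the groups share no mouse numbers.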
